A study of Mus musculus with 2 samples.

Results

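The genes described here are the mouse miRNA genes with late numbers, that is, with symbols from Mir1839 upwards in the naming order of the miRNA registry, for which at least 1 read was counted on the sense strand in newborn heart. Of 1973 gene rows in the tables, 551 carried such a symbol after the leaving out of Mir3074-1 and of the Dlk1-Dio3 imprinted region on chromosome 12, and 258 of the 551 (46.8%) had a count. The 258 genes were thus chosen by their own summed sense count in these libraries, so their detection is not a result. At the edge of the rule, 61 of them had exactly 1 count in all and 293 late-numbered genes had 0.

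The hearts came from B6NCrl mouse pups on postnatal day 0. There was 1 group of 2 samples, each a single heart of 1 pup from the litter of the same pregnant female: pup 2 gave replicate 1 and pup 3 gave replicate 2. The pups carried no treatment or engineered allele in the labels, sex was not collected, and no comparison of conditions exists. Total RNA was sequenced as small RNA libraries with inserts under 30 nt, giving 2323450 sense counts on miRNA genes in replicate 1 and 3487183 in replicate 2. Reads that aligned to several places, 36.6% and 37.1% of all reads, belong to no gene in the tables. The heart muscle miRNAs Mir208a, Mir208b, Mir499, Mir1a-1 and Mir133a-1 summed to 90126 and 88947 counts per 1000000 sense counts (CPM). Nearly all of this came from Mir208a, Mir208b and Mir499. Mir1a-1 had 7.32 and 5.45 CPM, and Mir133a-1 had 8.61 and 7.17. Like all levels here, these hold only for reads that align to a single place. They do not bound the level of a miRNA whose gene has copies.

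A canonical miRNA is cut from a hairpin in a primary transcript by Drosha and then from the precursor by Dicer, and it represses messenger RNAs mainly through its seed, bases 2 to 8. A mirtron bypasses Drosha: a short intron is spliced out, debranched and folded, so that its precursor begins at the 5′ splice site and ends at the 3′ splice site. In a tailed mirtron only 1 precursor end is set by splicing. Numbers in miRNA names follow the order of registration. Early numbers went largely to abundant, conserved miRNAs found by cloning, and late numbers largely to sequences found by deep sequencing. Some late entries lie within other stable small RNAs, such as transfer RNA and ribosomal RNA.

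The sequences of the most abundant members show these kinds side by side. They are RefSeq entries on GRCm38.p6, and 238 of the 258 genes had an entry there. The mature sequences of the leading gene, of both leading mirtrons, of a gene related to ribosomal RNA and of a gene in an intron follow, with the seed in capitals.
miR-1983: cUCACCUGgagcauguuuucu
miR-3102-5p: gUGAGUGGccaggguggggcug
miR-3102-5p.2-5p: gGUGGUGCaggcaggagagcc
miR-3102-3p.2-3p: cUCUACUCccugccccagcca
miR-3102-3p: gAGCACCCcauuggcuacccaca
miR-1981-5p: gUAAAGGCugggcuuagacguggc
miR-1981-3p: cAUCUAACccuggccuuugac
miR-6236: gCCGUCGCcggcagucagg
miR-3099-3p: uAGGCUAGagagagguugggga
Mir3102 is listed with 4 mature sequences from 1 hairpin, an outer pair and an inner pair. The counts are per gene, so they do not tell these apart.

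The late-numbered genes held very little of the miRNA counts. Together they had 3357 counts in replicate 1 and 4774 in replicate 2, or 0.144% (exact Clopper-Pearson 95% interval 0.140% to 0.149%) and 0.137% (0.133% to 0.141%) of all sense counts, a mean of 0.141% ± 0.00536 (SD, n = 2). These intervals cover counting error alone: no molecular identifiers were used, and 1 molecule can give several reads. In bulk hearts, fewer cells of a type and less RNA per cell cannot be told apart. The median member had 1 count in replicate 1 and 2 in replicate 2, against medians of 173 and 283 for the 330 earlier-numbered genes with a count. At 2 CPM or more in both hearts there were 46 late-numbered genes, beside 277 of those 330. In all, 199 members (77.1%) had fewer than 10 counts summed over both libraries, 12 had 50 or more and 4 had 200 or more.

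**Figure D1:**
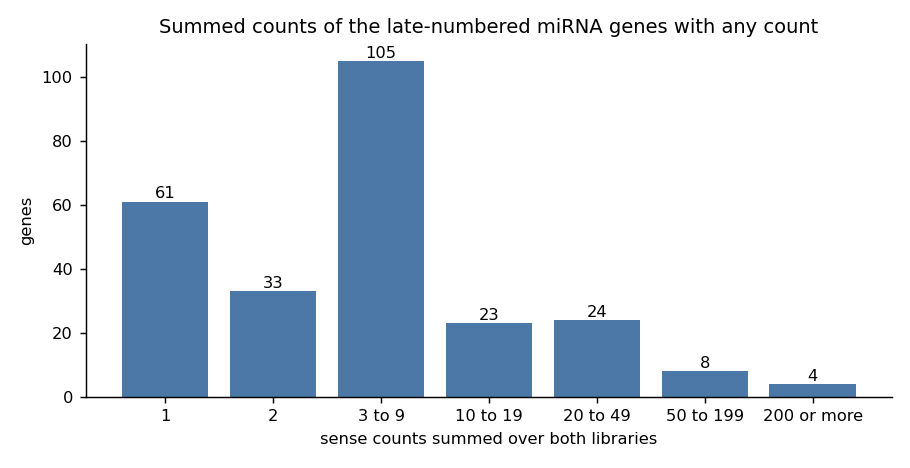
Number of late-numbered miRNA genes (y axis) by their sense counts summed over both libraries (x axis). The 61 genes with 1 count are at the left and the 4 genes with 200 or more are at the right.

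Within that small share, a single gene dominated. Mir1983, on chromosome 13 from 21896918 to 21897049, minus strand, between annotated genes, had 1729 counts in replicate 1 and 2545 in replicate 2. These were 744 CPM (709 to 780) and 730 CPM (702 to 759), so that the counting intervals of the hearts overlapped. Mir1983 ranked 82 among all miRNA genes by mean level and held 52.4% ± 1.28 (SD, n = 2) of the members' counts. Without it the members' share was 0.067% ± 0.00435.

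Mir1983 is known to overlap an isoleucine transfer RNA. Its level holds only for reads that align to a single place, since reads on several places were assigned to no gene. Its 132-nt hairpin is printed with the capitals marking a match to GUUCGANNC, a short form of the internal promoter box of transfer RNA genes known as the B box.
Mir1983 hairpin: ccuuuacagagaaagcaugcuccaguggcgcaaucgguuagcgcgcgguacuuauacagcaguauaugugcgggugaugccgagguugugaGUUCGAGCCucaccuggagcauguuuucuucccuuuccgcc
On the annotated strand, the match was found in 20 of 1894 annotated miRNA precursors (1.06%). Among the members, Mir1983 and Mir5100 held it. Mir5100 had 7 counts in each library, 3.01 and 2.01 CPM. The annotated mature miR-1983 begins at the last base of the match. Such a match is a description of the letters and not a measured promoter.

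Both members known to be related to ribosomal RNA were far lower. Mir6236, at chromosome 9, 110281287 to 110281409, had 42 and 89 counts, or 18.1 and 25.5 CPM. By mean level Mir6236 was the highest of the members after the leading 4, though Mir7689 was higher in replicate 1. Mir6240, at chromosome 5, 114851948 to 114852064, had 18 counts in each heart, 7.75 and 5.16 CPM. Ribosomal RNA has many copies in the genome, and reads aligned to several places were not assigned, so both values are uncertain. Of 9 late-numbered genes listed as related to ribosomal, transfer or small nucleolar RNA, these genes and Mir1983 had a row, and together the 3 reached 770 and 760 CPM. These relations are background knowledge: in the annotation used, 0 of 258 members overlapped a small structural RNA gene (nuclear transfer RNA genes were not among those searched), and these 3 shared no 20-nt stretch with one.

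The next 3 genes after Mir1983 lay close together. Mir5099, at chromosome 12, 36816205 to 36816278, plus strand, between annotated genes, had 230 counts in replicate 1 and 310 in replicate 2, or 99.0 and 88.9 CPM. Mir3102, at chromosome 7, 100882306 to 100882409, minus strand, had 223 and 293 counts, or 96.0 and 84.0 CPM. Mir1981, at chromosome 1, 184822407 to 184822488, minus strand, had 189 and 261 counts, or 81.3 and 74.8 CPM. In mean level these were 93.9 ± 7.14, 90.0 ± 8.45 and 78.1 ± 4.60 CPM (SD, n = 2). The SDs describe the change between hearts, which went the same way for these genes. Mir5099 was above Mir3102 in each heart, but the counting intervals of Mir5099 and Mir3102 overlapped in both hearts. The difference between these genes was not tested. The leading 4 genes held 70.6% of the members' counts in replicate 1 and 71.4% in replicate 2, and the leading 10 held 78.1% ± 0.312.

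**Figure D2:**
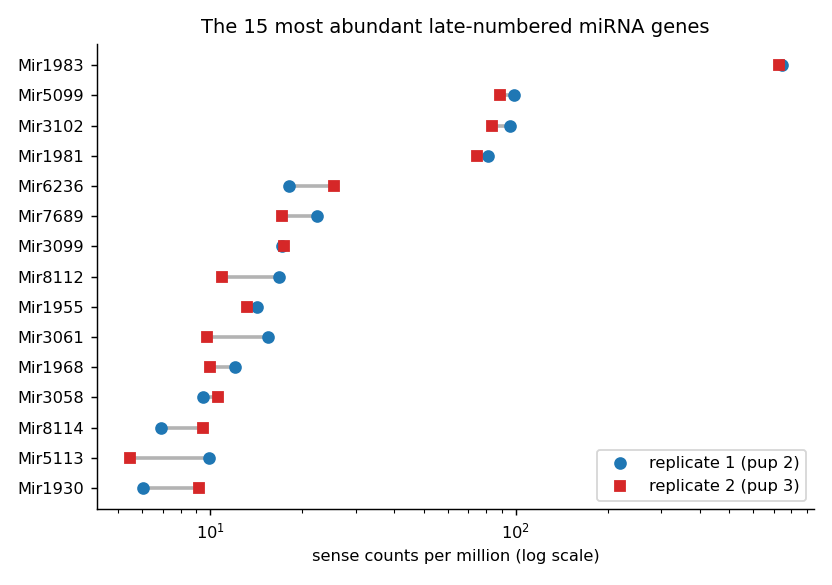
Level of the 15 most abundant late-numbered genes in each heart, in CPM on a log axis, with a circle for replicate 1, a square for replicate 2 and a grey line between them. Mir1983 stands at 744 and 730 CPM, Mir5099, Mir3102 and Mir1981 between 74.8 and 99.0, and all others at 25.5 or below.

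Mir3102 and Mir1981 are mirtrons by position as well as by name. The Mir3102 precursor is exactly the 104-nt intron of Arhgef17, and the Mir1981 precursor is exactly the 82-nt intron of Marc2, a molybdenum-containing reductase of mitochondria. Of the earlier-numbered genes that fill an intron, the 4 with a count had 161 and 214 counts together, fewer than Mir3102 alone. The hairpins of Mir1981 and of Mir1982, which fills the 74-nt intron of Oaz1 (antizyme, a regulator of polyamine synthesis), are printed with the first and last pair of bases in capitals, the GU and AG of a spliced intron.
Mir1981 hairpin: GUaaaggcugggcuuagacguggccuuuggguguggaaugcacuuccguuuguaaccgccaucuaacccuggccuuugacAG
Mir1982 hairpin: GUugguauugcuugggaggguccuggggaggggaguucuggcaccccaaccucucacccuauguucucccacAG
Mir1982 had 10 and 20 counts, 4.30 and 5.74 CPM.

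Among all members, 16 precursors filled an intron, with both ends within 10 nt of the intron's ends. Below Mir3102, Mir1981 and Mir1982 the class fell to Mir6944 in Dbn1 (drebrin, an actin-binding protein) with 14 and 13 counts, Mir7018 in Hspg2 (the basement membrane proteoglycan perlecan) with 8 and 15, Mir7068 in Cherp with 7 and 11, and Mir3062 in Pfas (an enzyme of purine synthesis) with 6 and 7. The class summed to 202 CPM in replicate 1 and 181 in replicate 2, of which Mir3102 and Mir1981 made up most. A further 113 precursors ended within 10 nt of the 3′ end of an intron and did not fill it. A mirtron with a 5′ tail has such a 3′ end, but whether each of the 113 began inside the intron was not checked. This 3′ end was the most frequent position but a faint one: the 113 genes summed to 98.6 and 103 CPM, and their median summed count was 3.

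The precursors at the 3′ end of an intron shared the sequence of the splice site. Of the 113, 97 (85.8%) ended in AG, as did 15 of the 16 that filled an intron, against 9 of the other 129 members (6.98%) and 14.7% of all 1894 annotated miRNA precursors. Their last 20 bases were 70% C or U at the median, against 50% in the other 129. Since the splice site defines both the position and the letters, these values describe 1 property. Of 117 members at such an end with a mature RefSeq sequence used here, 99 had one that stopped within 2 nt of the precursor's end and 88 had one that ended in AG. The most counted of those are printed with that AG in capitals.
miR-7083-3p: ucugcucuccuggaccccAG
miR-6900-3p: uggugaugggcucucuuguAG
miR-1982-3p: ucucacccuauguucucccacAG
miR-6990-3p: agcccugccucuuccuggcAG
miR-3097-3p: cucagaccuuucuaccugucAG
Mir7083 lies in an intron of Dock6 and had 11 and 25 counts. Mir6900 lies in Ndufa10, which encodes a subunit of respiratory complex I, and had 11 and 22. Mir6990 lies in Esrra, which encodes a nuclear receptor of mitochondrial gene programmes, and had 12 and 17. Mir3097 lies in Rgs12 and had 9 and 19. None of these genes reached 8 CPM in either heart.

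In all, 129 of 258 late-numbered genes with a count (50%) had a precursor at the 3′ end of an intron, filling it or not. The share was 26.6% of the 293 late-numbered genes at 0 and 1.52% of the 330 earlier-numbered genes with a count. Read the other way, 129 of 207 late-numbered genes at such an end had a count (62.3%), against 7 of 9 at the 5′ end of an intron alone (77.8%), 65 of 132 elsewhere inside an intron (49.2%), 31 of 70 in an exon (44.3%), 10 of 50 on the opposite strand of a gene (20%) and 16 of 83 between genes (19.3%). The counts chose the members, so these shares are a description without a test. With the limit at 3 summed counts, 77 of 164 genes (47%) lay at such an end, and at 10 summed counts 20 of 59 (33.9%).

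**Figure D3:**
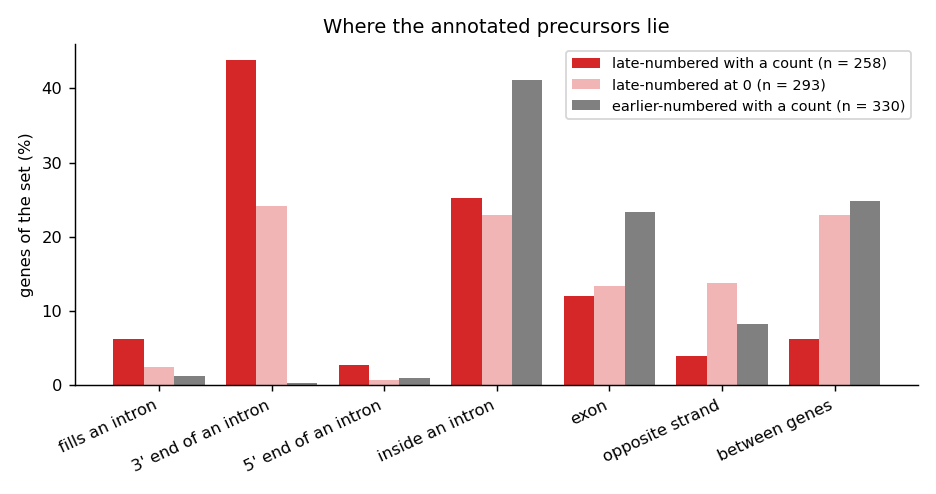
Share of genes (y axis, percent of the set) by the position of the annotated precursor (x axis), for late-numbered genes with a count, late-numbered genes at 0 and earlier-numbered genes with a count. The 3′ end of an intron held 43.8% of the first set, 24.2% of the second and 0.303% of the third.

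By counts the order of the positions was different. The 16 members between genes held 61.8% and 63.2% of the members' counts, mostly through Mir1983. Members that ended at the 3′ end of an intron without filling it held 6.82% and 7.50%, those that filled an intron 14.0% and 13.2%, those elsewhere in introns 9.32% and 9.11%, and those in exons 5.48% and 4.88%. The 2 hearts thus gave nearly the same division of the counts.

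Among the genes with a count, number and position went together. Names from 6800 to below 7200 had 181 rows, of which 112 had a count, and 108 of the 112 (96.4%) lay at the 3′ end of an intron. The share over all 181 rows was not counted. Of the 293 late-numbered genes at 0 under any number, 78 (26.6%) also lay at such an end. These 112 genes shared 210 counts in replicate 1 and 330 in replicate 2, and the highest, Mir7083, had 36 in all. Names from 6000 to below 6800 had 100 rows, of which 8 had a count and 0 lay at such an end. Names from 3000 to below 4000 had 40 of 69 with a count, led by Mir3102, and names from 4000 to below 6000 had 29 of 48, led by Mir5099. Names below 2000 had 26 of 57, led by Mir1983, and names from 7200 upwards 42 of 92, led by Mir7689. From 2000 to below 3000, Mir2137 was the single gene of 4 with a count, 2 in each library.

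**Figure D4:**
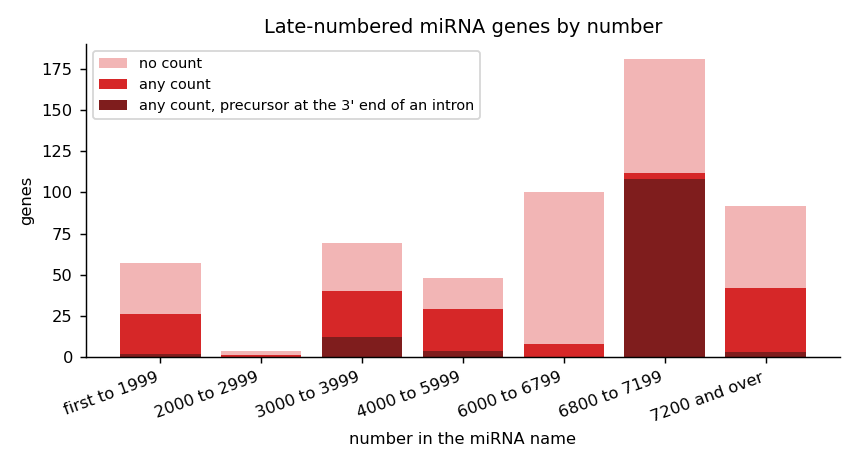
Number of late-numbered miRNA genes (y axis) by the number in the name (x axis); the full height is all genes in the tables, the pale part those at 0, and the dark part those with a count and a precursor at the 3′ end of an intron, drawn within those with any count in red. Names from 6800 to below 7200 hold 108 of the 129 genes with a count and such an end.

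Members in longer introns and in exons made up the middle of the order. Mir3099, in an intron of the imprinted gene Usp29 on chromosome 7 (6803587 to 6803670), had 40 and 61 counts, 17.2 and 17.5 CPM, with a spread between hearts of 0.196 CPM (SD). Mir1955, in an intron of the chromatin gene Phf21a on chromosome 2, had 33 and 46 counts, Mir1968, in an intron of Grtp1, had 28 and 35, and Mir3058, in an intron of the phosphatase gene Nudt4, had 22 and 37. In each heart the counting interval of each of these 4 genes overlapped that of the next in the order.

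Among members that overlap an annotated exon, Mir3061 in Ppp2ca, the catalytic subunit of protein phosphatase 2A, had 36 and 34 counts. Mir8114 in Glul, glutamine synthetase, had 16 and 33. Mir5113 in Tnrc6b, a partner of Argonaute in miRNA silencing, had 23 and 19. Mir1930 in Ube2g2, a ubiquitin-conjugating enzyme, had 14 and 32, and Mir3057 in Apba3 had 17 and 22. Of these, Mir3057 overlaps coding sequence. Mir8112 in Krcc1, opposite the muscle gene Smyd1, had 39 and 38 counts and shares at least 20 nt with 5 other annotated miRNA genes, so its value is uncertain. Mir7689 lies on the opposite strand of Sorcs2 and had 52 and 60 counts, 22.4 and 17.2 CPM.

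The late-numbered genes had little sequence in common with other miRNA genes. A stretch of 20 nt shared with another annotated miRNA gene was found in 7 of 258 members (2.71%), in 34 of 293 late-numbered genes at 0 (11.6%) and in 91 of 330 earlier-numbered genes with a count (27.6%). Of 12 listed copies of Mir3470, Mir3471, Mir3473 and Mir1957, which are related to repeats, 12 had a row and 1, Mir3473d, had a count (1 in replicate 1). Reads that align to several places are counted for no gene, and their part in these values was not tested. For a gene at 0 counts, the limit by 3 counts was 1.29 CPM in replicate 1, and in replicate 2 it was 0.860 CPM. It holds for reads that align to a single place and does not bound the level of a gene with copies.

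Most seeds of the members occurred once among them. Seed sharing was not counted within other sets of miRNA genes, so the values describe the members alone. The 404 mature sequences of 236 members held 384 different seeds, 18 seeds were shared by 2 or 3 members, and 18 members had the seed of an earlier-numbered miRNA with a count. The most counted pair of members with a shared seed was miR-7689-5p with a mature sequence of Mir5620, which share the seed CGAGGCA; Mir7689 had 112 summed counts and Mir5620 had 2. The seed of miR-1983, UCACCUG, is also that of a mature sequence of Mir412, and the seed of miR-3102-5p, UGAGUGG, that of Mir702. Mir6932 and Mir7039 carry CUGUUCU, found in mature sequences of Mir26a-2 and Mir26b, but had 4 and 1 summed counts.

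Annotated precursors of members were 70 nt long at the median, with 55.7% G or C and a predicted folding energy of -0.427 kcal/mol per nt. Earlier-numbered genes with a count had medians of 84 nt, 48.6% and -0.433. Within the members, those that ended at the 3′ end of an intron without filling it were shorter, at 65 nt, and folded with -0.393 kcal/mol per nt, and those that filled an intron had 62.8% G or C. Mir3061 had the firmest predicted fold per nt of the 15 most abundant members (-0.719) and Mir8114 the weakest (-0.345). Mir6240, just outside those 15, had -0.211.

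No late-numbered gene was found to differ between the hearts. The exact two-sided binomial test given TMM-scaled library sizes, which compares these 2 libraries and not conditions, called 86 of all 615 genes with a count (14.0%) at a Benjamini-Hochberg adjusted p under 0.05, and 0 of the 258 members. Of all genes, 8.94% were called higher in replicate 2 and 5.04% lower. At an unadjusted p under 0.05 it found 6 members (2.33%), against 118 of 615 genes (19.2%). With DESeq2 size factors in the same test, 0 members were called as well. Low counts limit this: a gene with fewer than 6 summed counts could not have been called, which leaves 93 members. At 6 counts a call needed all of them in replicate 1, the shallower library. Mir5130, with 0 and 7 counts, had an unadjusted p of 0.0471 in the exact binomial test, against 0.00641 for the last called gene. Not all of the 93 could therefore have been called higher in replicate 2. Among genes with 20 to under 200 summed counts, 0 of 32 members and 8 of 70 other genes (11.4%) were called, and the difference between these shares was not tested.

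**Figure D5:**
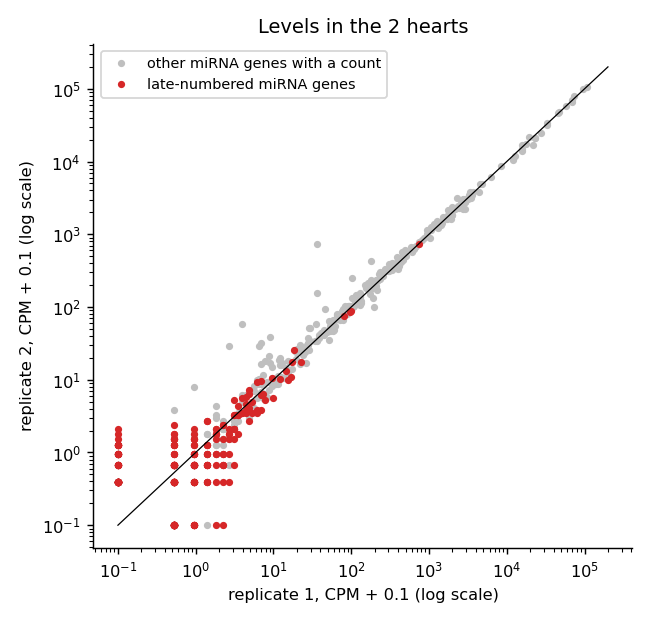
Level of each miRNA gene with a count in replicate 1 (x axis) and replicate 2 (y axis), in CPM plus 0.1 on log axes; late-numbered genes are red, other genes grey, and the line marks equal levels. The red points lie at the low end, where single counts form rows, with Mir1983 alone at 744 and 730 CPM.

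For the leading genes the ratios had narrow counting intervals, which rest on 1 library per heart, cover counting error alone and so bound no difference between the hearts. The p-values of the exact test rest on the same reads. The ratio of replicate 2 over replicate 1 in CPM was 0.981 for Mir1983 (exact 95% interval 0.922 to 1.04), 0.898 for Mir5099 (0.755 to 1.07), 0.875 for Mir3102 (0.733 to 1.05) and 0.920 for Mir1981 (0.760 to 1.12). For Mir6236 it was 1.41 (0.968 to 2.09), higher in replicate 2, with an adjusted p of 0.343 in the exact binomial test. Mir3061 (0.629, 0.382 to 1.03) and Mir8112 (0.649, 0.404 to 1.04) were the lowest of the 10 most abundant, with adjusted p of 0.261 and 0.301 in the same exact test. Over the 36 members with 20 or more summed counts, the median log2 ratio, with 1 CPM added to each level, was -0.14, and 24 were lower in replicate 2. Over all 310 genes with as many counts the median was 0.06 and 120 were lower.

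The largest log2 ratios of those 36 genes were 0.62 for Mir6951 (7 and 18 counts), 0.53 for Mir1930, 0.51 for Mir7083, 0.48 for Mir6236 and 0.41 for Mir8114 towards replicate 2. Towards replicate 1 they were -0.76 for Mir5113, -0.74 for Mir1927 (16 and 13 counts), -0.68 for Mir3076 (11 and 9), -0.66 for Mir3079 (14 and 12) and -0.62 for Mir3061. None passed the test. Of the 6 members with an unadjusted p under 0.05, Mir5132, in Irak1 on the X chromosome, had 5 counts in replicate 1 and 0 in replicate 2 (adjusted p = 0.0653, exact binomial test). The others were Mir5623, Mir7119, Mir1945 and Mir6418, with more counts in replicate 1, and Mir5130, with 0 and 7. The 10 epithelial marker miRNAs summed to 429 and 1815 CPM in the first and second replicate, and none of them is a member; their part in the ratios above was not tested.

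Members seen in a single library had few counts. Counts in both libraries were found for 161 members, in replicate 1 alone for 35 and in replicate 2 alone for 62. The highest summed count of a gene seen in a single heart was 7, for Mir5130. With the deeper library thinned to the total of the other, 97 of 247 genes were seen in a single library, 46 in replicate 1 alone and 51 in replicate 2 alone.

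In the members' rows, nearly every counted read lay on the annotated strand. Of the members' counts on either strand, 3 lay on the opposite strand in replicate 1 (0.0893%, exact 95% interval 0.0184% to 0.261%), 2 of them in the row of Mir7654 and 1 in that of Mir7655. In replicate 2 there were 0 (exact 95% interval 0% to 0.0772%), and the limit by 3 counts was 0.0628%. Earlier-numbered genes with a count had 0.138% and 0.130%. Over all gene rows of the tables the opposite-strand share was 6.62% and 6.67%. Those rows include genes without a sense count, which neither set can hold, so these shares are not like for like. No member overlaps another annotated miRNA gene, and 17 of the 330 earlier-numbered genes do. The rule left out Mir3074-1, and the 3 late-numbered genes listed as opposite an earlier miRNA had no row. The 0 therefore does not describe late-numbered genes in general.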

How the data were processed

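Small RNA of 2 newborn mouse hearts was analysed from the deposited tables, 1 per library. The authors deposited raw counts of reads for each miRNA gene in 3 columns (both strands, sense, opposite); assembly mm10 and annotation M4 are named per the labels' descriptions. Aligner, counter and settings are not given in the sources used here. The 4 summary rows (54.0% and 53.1% of reads) were kept out of totals.

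Positions came from GENCODE M21, on GRCm38, the same assembly; 1894 of 1973 identifiers matched and the other 79 had 0 counts. CPM used sense counts per 1000000 and was not divided by precursor length. A precursor was placed at an intron end within 10 nt, in any annotated transcript of the same strand; then exon, intron, opposite strand and between genes were assigned in that order. Mature sequences from chromosome 18 were not used. Folding energies came from RNAfold 2.7.2. Libraries were compared by an exact binomial test (scipy 1.17.1) with TMM sizes from edgeR 4.0.16 and, as an alternative, DESeq2 1.42.0 size factors. The test was tested on simulated data. With 1 litter and 1 library per heart, pup and preparation cannot be told apart.

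Members and lists were chosen with earlier results of these data known. Genes named were the 15 most abundant, the 5 with the largest ratio each way among members with 20 or more counts, and listed genes with a count; members named for position, host, seed or unadjusted p were chosen after their values were seen. Of 13 widely sequenced late miRNAs listed, 7 had a row and all 7 had a count. Of 3 listed opposite an earlier miRNA, 0 had a row. Of 3 listed mirtrons, 3 had a count; Mir5132 ended at the 3′ end of an intron and did not fill it in this annotation.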

Additional observations from a re-analysis of the deposited data

How the results depend on the processing

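No paired analysis was possible because both samples belong to 1 group. Counts of genes followed the count limit: 164 late-numbered genes had at least 3 summed counts, 59 at least 10 and 161 a count in each library, and 18 and 10 reached 5 and 10 CPM in both. The members' share was 0.131% over both strands, 0.0734% with reads on no feature and on several places in the total, and 0.067% without Mir1983; it ranged from 0.137% to 0.144% with either library left out, as members did from 196 to 223, members at 2 CPM from 53 to 62, the leading 10 genes' part from 77.8% to 78.3% and the opposite-strand share from 0% to 0.0893%. Members at the 3′ end of an intron numbered 77 from 3 counts and 20 from 10 counts, and 119 with a limit of 2 nt in place of 10, settings chosen after seeing the data. In all 7 alternatives of the test between libraries 0 members were called, and all genes called numbered 74 to 97. None of the named log2 ratios changed sign under TMM scaling. A pseudocount added to both levels cannot change the sign, so another pseudocount was no check of it. Depth limits most members, with 1 count worth 0.430 and 0.287 CPM.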

Other observations

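Some late-numbered genes with a count lay near another miRNA gene or shared a host gene. Within 10 kb on the same strand, 8 of the 258 members had another miRNA gene with a Mir name, with or without a count. For 1 of them, Mir5132, that neighbour was earlier-numbered (Mir718). The share among other miRNA genes was not counted. In Ccnf, the cyclin F gene, Mir5134 had 5 and 2 counts and Mir6965 had 1 and 2. In Skiv2l, a helicase gene of RNA decay, Mir6971 had 2 and 2 counts and Mir6970 had 1 and 0. In Ddx39b, a helicase gene of splicing, Mir6975 had 0 and 4 counts and Mir8094 had 0 and 1. Gm20388 held Mir7079, Mir7080, Mir7237 and Mir7687, and Arap3 held Mir6980 and Mir6981. The 258 genes lay on 20 chromosomes, with 27 on chromosome 11 and 8 on the X chromosome.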
